A study of Mus musculus with 10 samples.

Results

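The 47 genes described here are G2 and M-phase genes of the mouse: the CDK1 and cyclin module that starts mitosis, the kinases that run it, the spindle checkpoint, kinetochore and spindle proteins, the cytokinesis machinery, the ubiquitin enzymes of anaphase and the proteins that shape mitotic chromosomes. They were chosen by name from that textbook role, with earlier results of these data known. Their NCBI gene identifiers were looked up in a deposited count table of 18103 genes. All 47 were found there and all 47 passed the filter on low counts. Expression was measured by RNA sequencing of 10 libraries from 5 groups of cultured mouse breast cancer cells, with 2 libraries in each group.

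As background, a cell enters mitosis when the kinase CDK1, bound to cyclin A or cyclin B, becomes active. PLK1 and the Aurora kinases then build the spindle, the kinetochores attach chromosomes to it, and the spindle checkpoint holds back the anaphase-promoting complex with its activator CDC20 until each chromosome is attached. Most of these genes are transcribed late in the cell cycle under the MuvB complex with B-MYB and FOXM1, and in resting cells they are repressed by the related DREAM complex, which binds a promoter element called the cell cycle genes homology region. Their mRNA is therefore widely used as a readout of how many cells of a culture are cycling.

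Py2T-LT cells are Py2T long-term cells, a mesenchymal subline of a mouse mammary tumour line. Their 3 groups were controls, cells given a MEK inhibitor, and cells given the same inhibitor with BMP2 (bone morphogenetic protein 2). The other line, MTΔECad, is a mesenchymal breast cancer line of the mouse named for its deleted E-cadherin gene. Its 2 groups were controls and cells given rosiglitazone, which activates the nuclear receptor PPARγ. All groups are labelled as 7 days, and all are cultures of established lines. The protocol gives 200 ng/ml as the usual dose of BMP2, 40 µM for the MEK inhibitor PD98059 and 2 µM for rosiglitazone, with DMSO in control medium, and the sample labels give no dose. That protocol adds rosiglitazone after BMP2 in cancer cells, and whether the medium of the Py2T-LT groups held it is not given in the sources used here. No group labelled with BMP2 alone was analysed here, so the BMP2 treatment can be read only against the MEK inhibitor. If the medium of the BMP2 samples also held rosiglitazone, its part cannot be told apart from that of BMP2, and agent and line cannot be told apart between the Py2T-LT and MTΔECad treatments.

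The promoters are shown because many of these genes share a known element, and a link between it and the changes was not tested. In RefSeq's annotation of GRCm38.p6, a window from 250 bases before to 50 bases after the annotated start was available for 38 of the 47 genes, as 40 promoters. The core of the cell cycle genes homology region was searched as TTTGAA or TTCGAA, and the box bound by the transcription factor NF-Y as CCAAT, both on either strand. A core stood in 31 of the 40 promoters (77.5%), against 19.2% of 32851 promoters of all genes. CCAAT was present in 77.5% against 37.4%, and 2 or more CCAAT boxes in 52.5% against 11.7%. The 150 bases from 120 before to 30 after the start are printed for 4 genes. They were those among Ccnb1, Ccnb2, Cdc20, Cdk1, Plk1 and Ube2c with a core in that stretch. The sequences run 5′ to 3′ on the gene's strand, with the core and the CCAAT boxes in capitals (TTCAAA and ATTGG are the same motifs on the other strand). Ccnb2, the cyclin B2 gene, lies on the minus strand at chr9:70421525-70421674, Cdc20 on the minus strand at chr4:118437314-118437463, Cdk1 on the minus strand at chr10:69352883-69353032, and Ube2c, which encodes the E2 enzyme of the anaphase-promoting complex, on the plus strand at chr2:164769809-164769958.
Ccnb2: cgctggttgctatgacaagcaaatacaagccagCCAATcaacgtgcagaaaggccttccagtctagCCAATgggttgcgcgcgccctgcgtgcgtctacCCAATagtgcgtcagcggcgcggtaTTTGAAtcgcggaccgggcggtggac
Cdc20: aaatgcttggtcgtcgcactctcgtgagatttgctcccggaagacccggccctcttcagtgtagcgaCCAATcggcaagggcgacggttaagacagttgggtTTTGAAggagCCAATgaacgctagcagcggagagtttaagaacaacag
Cdk1: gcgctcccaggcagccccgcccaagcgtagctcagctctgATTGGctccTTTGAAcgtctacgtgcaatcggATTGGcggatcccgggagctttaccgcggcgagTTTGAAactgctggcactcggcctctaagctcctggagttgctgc
Ube2c: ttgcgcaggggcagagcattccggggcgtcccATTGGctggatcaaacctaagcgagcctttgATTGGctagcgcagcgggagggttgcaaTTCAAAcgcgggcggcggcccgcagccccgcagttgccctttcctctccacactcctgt

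The core lay at base 5 after the start in Ccnb2, with another 167 bases before it and outside the stretch printed, 18 bases before it in Cdc20, 15 and 71 before it in Cdk1 and 29 before it in Ube2c. CCAAT boxes followed each other upstream of it in Ccnb2, at 87, 54 and 21 bases before the start. The Ccnb1 promoter held CCAAT at 99 and 67 bases before the start and neither core sequence in the window, and in Plk1 the core began at base 31 after the start, beyond the stretch printed for the others. From 60 bases before the start onwards, a core was found in 70.0% of the 40 promoters and in 5.90% of all promoters. Among 117 other mitosis genes the core stood in 45.1% of 113 promoters, and among 43 DNA replication genes in 17.1% of 41. These are matches of letters and do not show binding.

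**Figure D1:**
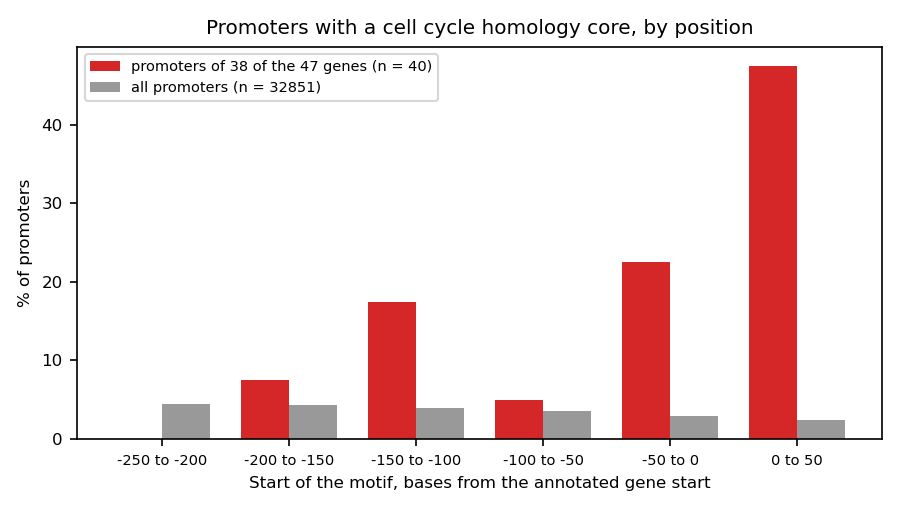
Share of promoters (y axis, percent) with a core of the cell cycle genes homology region starting in each 50-base stretch around the annotated gene start (x axis, bases), for 40 promoters of 38 mitosis and spindle genes (red) and all 32851 promoters (grey). The red bars are tallest around the start, where the core was found in 70.0% of the 40 promoters from 60 bases before the start onwards, while the grey bars go from 4.4% furthest upstream down to 2.46% after the start.

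Library totals ran from 14659987 to 17249199 counts, so 1 count was worth at most 0.0696 CPM (read counts scaled to a common library size by the trimmed mean of M-values). The replicates are described as 2 independent experiments. The p-values rest on the spread between the libraries of a group, pooled over the 5 groups. Replicate libraries correlated at 0.9928 to 0.9949 across genes, but the Py2T-LT controls stood furthest apart, with a chi-square of 16.3 per gene against 5.29 in the group that differed least. Mesenchymal Vim was at 3199 and 2756 CPM in the Py2T-LT controls and 5853 and 5548 in the MTΔECad controls. E-cadherin (Cdh1) was at 36.0 and 31.7 and 2.58 and 2.25 CPM, counted over the whole gene. A list of 8 epithelial genes summed to 637 to 688 CPM in the Py2T-LT controls, 588 to 672 with the MEK inhibitor, 314 to 336 with BMP2 plus the inhibitor, 283 to 293 in the MTΔECad controls and 418 to 462 with rosiglitazone. Of these, Esrp1 had 0 CPM in 9 libraries and Epcam at most 0.931 CPM. Of the 7 tested epithelial genes, 1 rose and 2 fell with the MEK inhibitor, 2 rose and 3 fell with BMP2 plus the inhibitor against control and 4 rose and 0 fell with rosiglitazone, and 4 were lower and 0 higher in MTΔECad controls. Of 7 mesenchymal genes, 1 rose and 1 fell, 1 rose and 1 fell and 0 rose and 0 fell in the same treatments, and 5 were higher and 0 lower in MTΔECad controls. Of all tested genes, 8.98% rose and 7.52% fell with the MEK inhibitor, and 19.1% and 19.4% with BMP2 plus the inhibitor. With rosiglitazone 7.95% rose and 5.26% fell, and 29.3% were higher and 31.7% lower in MTΔECad controls. With BMP2 plus the inhibitor 5 epithelial genes were called with a change beyond 1 log2 unit, 2 up and 3 down. The epithelial sum therefore does not describe each gene. The part of these lists in the results was not tested. Markers of blood cells (3 of 7 in the table) summed to at most 0.870 CPM, of endothelial cells (4 of 4) to 0.268 to 1.56 CPM and of skeletal muscle (2 of 4) to 0.402 to 4.72 CPM, the last of these highest in the Py2T-LT control and MEK inhibitor groups. Exons of 11 of the 47 genes overlap a gene on the opposite strand (Ccna2, Cdc20, Cdc25c, Plk1, Kif20a, Kif4, Ube2c, Nek2, Prc1, Cdca8 and Ncapg). Those of Top2a, Foxm1 and Ncapd2 overlap a gene on their own strand. Whether the counting used strand is not given in the sources used here, so the values of these genes may hold reads of the partner.

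Summed over the 47 genes, mitosis transcripts were most abundant with the MEK inhibitor alone and least abundant in MTΔECad cells with rosiglitazone. The sum was 2560.5 to 2637 CPM in the Py2T-LT controls, 3781 to 3917 with the MEK inhibitor and 1140.0 to 1203 with BMP2 plus the inhibitor. In MTΔECad cells it was 1377 to 1422 CPM in the controls and 985 to 1032 with rosiglitazone. The 2 libraries of each group lay close together and no 2 groups overlapped. Relative to the control of the same line, the mean sum was 1.48 times as high with the MEK inhibitor, 0.451 times with BMP2 plus the inhibitor and 0.721 times with rosiglitazone. In bulk RNA, fewer cycling cells and less mitotic RNA per cell cannot be told apart. The 5 RNAs of a list that are not polyadenylated or stay in the nucleus, read as a sign of RNA selection, summed to 27301 to 29222 CPM in the Py2T-LT controls, 26086 to 27738 with the MEK inhibitor, 34291 to 38377 with BMP2 plus the inhibitor, 38652 to 40417 in the MTΔECad controls and 41235 to 42196 with rosiglitazone. Control and inhibitor libraries overlapped in that sum, and 0 of the 5 were called with the inhibitor (edgeR, median 0.08). With BMP2 plus the inhibitor 2 rose against control, Malat1 by 0.50 ± 0.10 and Neat1 by 0.51 ± 0.08, and with rosiglitazone 1 rose, Neat1 by 0.56 ± 0.08. Between the lines 2 were higher and 2 lower in MTΔECad controls, where 29.3% and 31.7% of all tested genes were. With the inhibitor 16.5% of all tested genes were called in either direction. With BMP2 plus the inhibitor 19.1% rose, and with rosiglitazone 7.95%. The part of the 5 RNAs in the differences below was not tested.

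Gene by gene, the order of the group means was similar. The MEK inhibitor group had the highest mean for 46 genes and the Py2T-LT control group for 1, Mybl2. The lowest mean was that of MTΔECad cells with rosiglitazone for 35 genes and that of Py2T-LT cells with BMP2 plus the inhibitor for 12. The commonest full order, shared by 23 genes, ran from the MEK inhibitor through the Py2T-LT control, the MTΔECad control and BMP2 plus the inhibitor down to rosiglitazone. These orders were not counted over all tested genes.

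**Figure D2:**
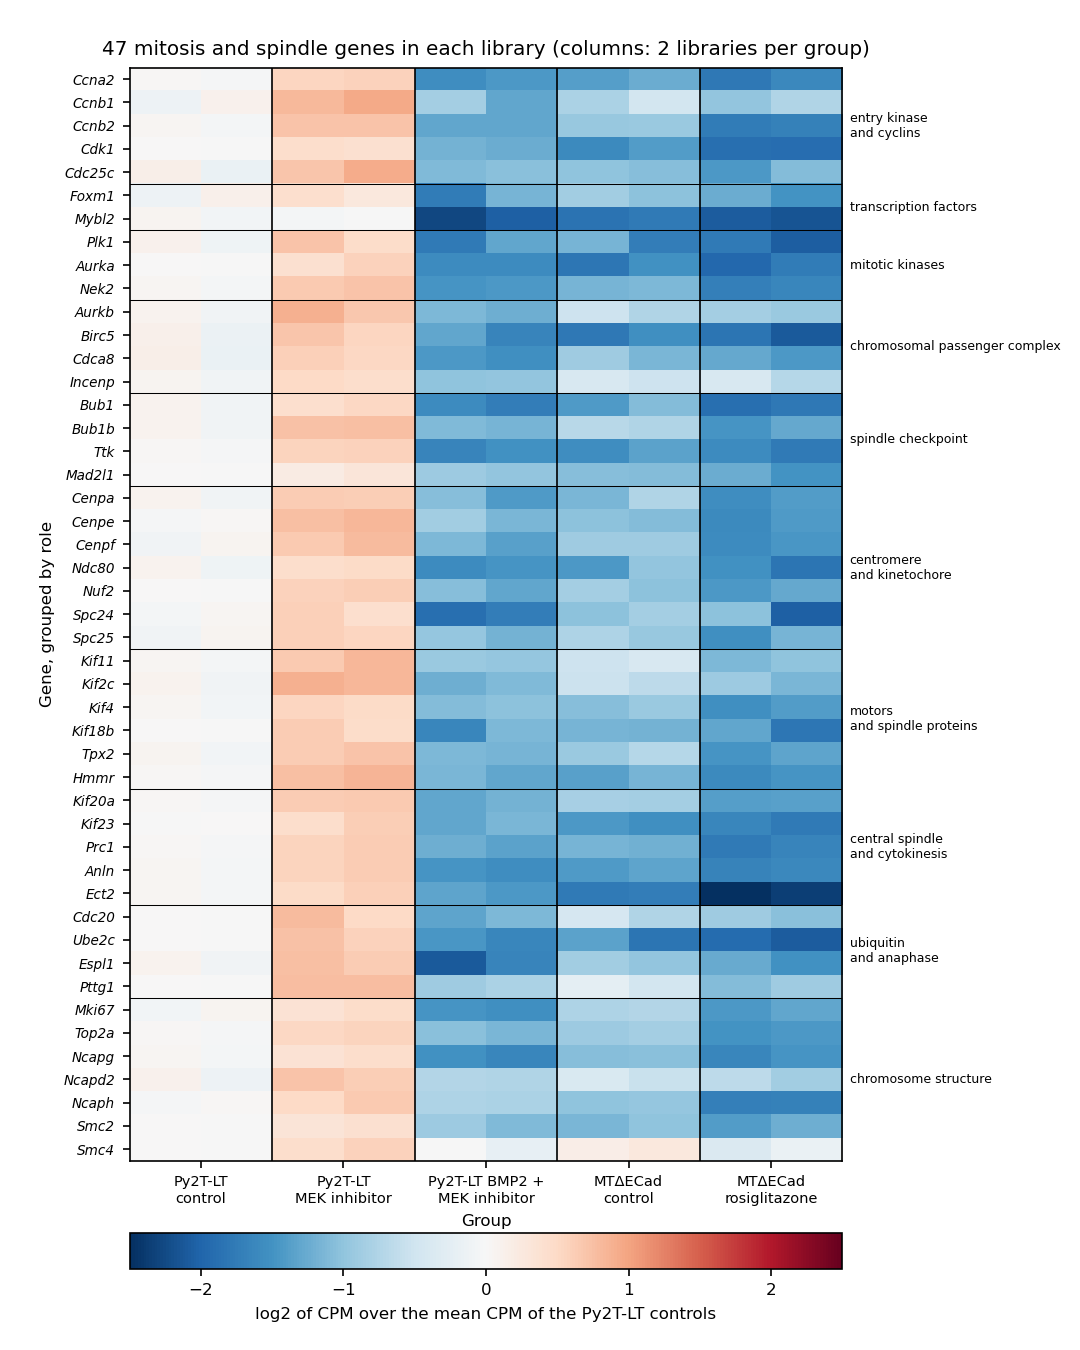
Level of each of the 47 genes (rows, grouped by role) in each of the 10 libraries (columns, 2 per group), as log2 of CPM over the mean CPM of the Py2T-LT controls, red for higher and blue for lower. The MEK inhibitor columns are red for nearly all genes, the BMP2 plus MEK inhibitor and both MTΔECad groups are blue for nearly all genes, and Smc4 in the last block is the palest row.

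The first comparison asks what blocking MEK alone did to these genes in Py2T-LT cells. Mitosis genes rose almost as a block: 43 of 47 rose and 0 fell (edgeR, adjusted p under 0.05), while 8.98% of the 13149 tested genes rose, 7.52% fell and 16.5% were called in either direction. The median change of the 47 was 0.59 on the log2 scale, against 0.01 over all tested genes. Both inhibitor libraries lay above both controls for 46 genes, as they did for 28.9% of all tested genes, 24.7% lying below. The rises were moderate and much alike. The largest belonged to Ccnb1, the cyclin B1 gene, which went from 11.1 and 13.1 CPM to 21.3 and 23.2, a rise of 0.88 ± 0.15 (log2 ± SE, adjusted p = 0.00023). Kif2c, which encodes a microtubule-depolymerising kinesin of the centromere, went from 17.7 and 15.8 to 31.0 and 29.9 CPM, a rise of 0.86 ± 0.12. The 4 genes without a call were Spc24 (0.50, adjusted p = 0.068), Mad2l1 (0.26, 0.12), Foxm1 (0.34, 0.13) and Mybl2 (-0.03, 0.96). With each of the 4 libraries left out in turn, 36 to 43 of the 47 rose.

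The second comparison sets Py2T-LT cells with BMP2 plus the MEK inhibitor against the same controls. Here 46 of the 47 genes fell and 0 rose, where 19.4% of all tested genes fell, 19.1% rose and 38.5% were called in either direction (edgeR). The median change was -1.24, against 0.00 over all tested genes, and for 40 genes the fall exceeded 1 log2 unit. Of the 13149 tested genes, 1717 were called with a change beyond 1 log2 unit in either direction. The falls among them were not counted apart. Both treated libraries were below both controls for each of the 47, as they were for 32.9% of all tested genes, 34.3% being above. The deepest fall was in Mybl2, the B-MYB gene, which went from 5.79 and 5.25 CPM to 1.14 and 1.34, a fall of 2.14 ± 0.24 (adjusted p = 3.4e-07). Espl1, the gene of separase, the protease that cuts cohesin at anaphase, went from 15.1 and 13.5 to 3.35 and 4.54 CPM, a fall of 1.85 ± 0.17. Smc4 alone had no call, with a change of -0.10 ± 0.08 (adjusted p = 0.37). The 46 calls were made again in each alternative run for this comparison, leaving out any single library included.

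The third comparison sets the samples labelled with BMP2 and the MEK inhibitor against those labelled with the inhibitor alone. The labels name BMP2 as the difference, and whether rosiglitazone was also added is not known. All 47 genes fell, against 19.4% of all tested genes (17.9% rose and 37.3% were called in either direction), with a median of -1.89 against 0.01 over all genes. All 47 were lower in both libraries with BMP2 than in both without it, as were 33.9% of all tested genes, 33.3% being higher. Of the 13149 tested genes, 1559 were called with a change beyond 1 log2 unit in either direction, with falls not counted apart. Among the 47 the fall was over 1 on the log2 scale for 46 genes and over 2, not counted over all tested genes, for 16. It was deepest in Espl1, from 24.2 and 22.1 CPM to 3.35 and 4.54, at 2.54 ± 0.16 (edgeR, adjusted p = 6.3e-11), and shallowest in Smc4, from 226 and 251 to 167 and 147 CPM, at 0.61 ± 0.08 (adjusted p = 6e-06). The comparisons within Py2T-LT cells share libraries: the controls enter the first and the second, and each treated group enters a pair of them, so their results are not independent of each other.

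The fourth comparison asks what rosiglitazone did in MTΔECad cells. Mitosis genes fell here too, less deeply: 23 of 47 fell and 0 rose, where 5.26% of all tested genes fell, 7.95% rose and 13.2% were called in either direction (edgeR). The median change was -0.44, against -0.02 over all tested genes. All 47 estimates were below 0, as were 7181 of the 13149 tested genes. Both rosiglitazone libraries lay under both controls for 44 genes, as they did for 28.6% of all tested genes (22.9% lay above), and the groups overlapped for 3. The largest fall was that of Ccnb2, from 20.5 and 20.7 CPM to 11.7 and 12.2, at 0.78 ± 0.11 (adjusted p = 2.7e-05). Ncaph, a condensin subunit gene, went from 14.7 and 15.1 to 9.05 and 9.15 CPM, a fall of 0.71 ± 0.12. The smallest change was in Incenp, the scaffold of the chromosomal passenger complex, at 17.7 and 16.3 CPM in controls and 17.5 and 14.1 with rosiglitazone, a change of -0.10 ± 0.13 (adjusted p = 0.72). The 24 genes without a call included Ccnb1, Cdc20, Plk1, Aurka, Aurkb, Foxm1 and Mybl2. The count rests on few libraries: 14 genes fell without rosiglitazone replicate 1, and 14 to 22 with each library left out in turn.

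The untreated lines also differed. In MTΔECad controls 46 of the 47 genes were lower than in Py2T-LT controls and 1 was higher, in a comparison where 61.0% of all tested genes were called, 31.7% lower and 29.3% higher (edgeR). The median was -0.99, against -0.03 over all tested genes, and 23 genes were lower by more than 1 on the log2 scale. Of the 13149 tested genes, 3219 were called with a difference beyond 1 in either direction, and the lower ones were not counted apart. Both MTΔECad libraries were below both Py2T-LT libraries for 46 genes and above them for 1, where 41.4% and 38.7% of all tested genes did so. Mybl2 was lower by 1.80 ± 0.24 and Ect2, which encodes an activator of RhoA at the cell equator, by 1.75 ± 0.10 (adjusted p = 2.3e-12). The gene that was higher was Smc4, by 0.21 ± 0.08 (adjusted p = 0.036). That call was lost without Py2T-LT control replicate 1 (adjusted p = 0.077), without Py2T-LT control replicate 2 (0.11), without MTΔECad control replicate 2 (0.2) and with DESeq2 (0.052).

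**Figure D3:**
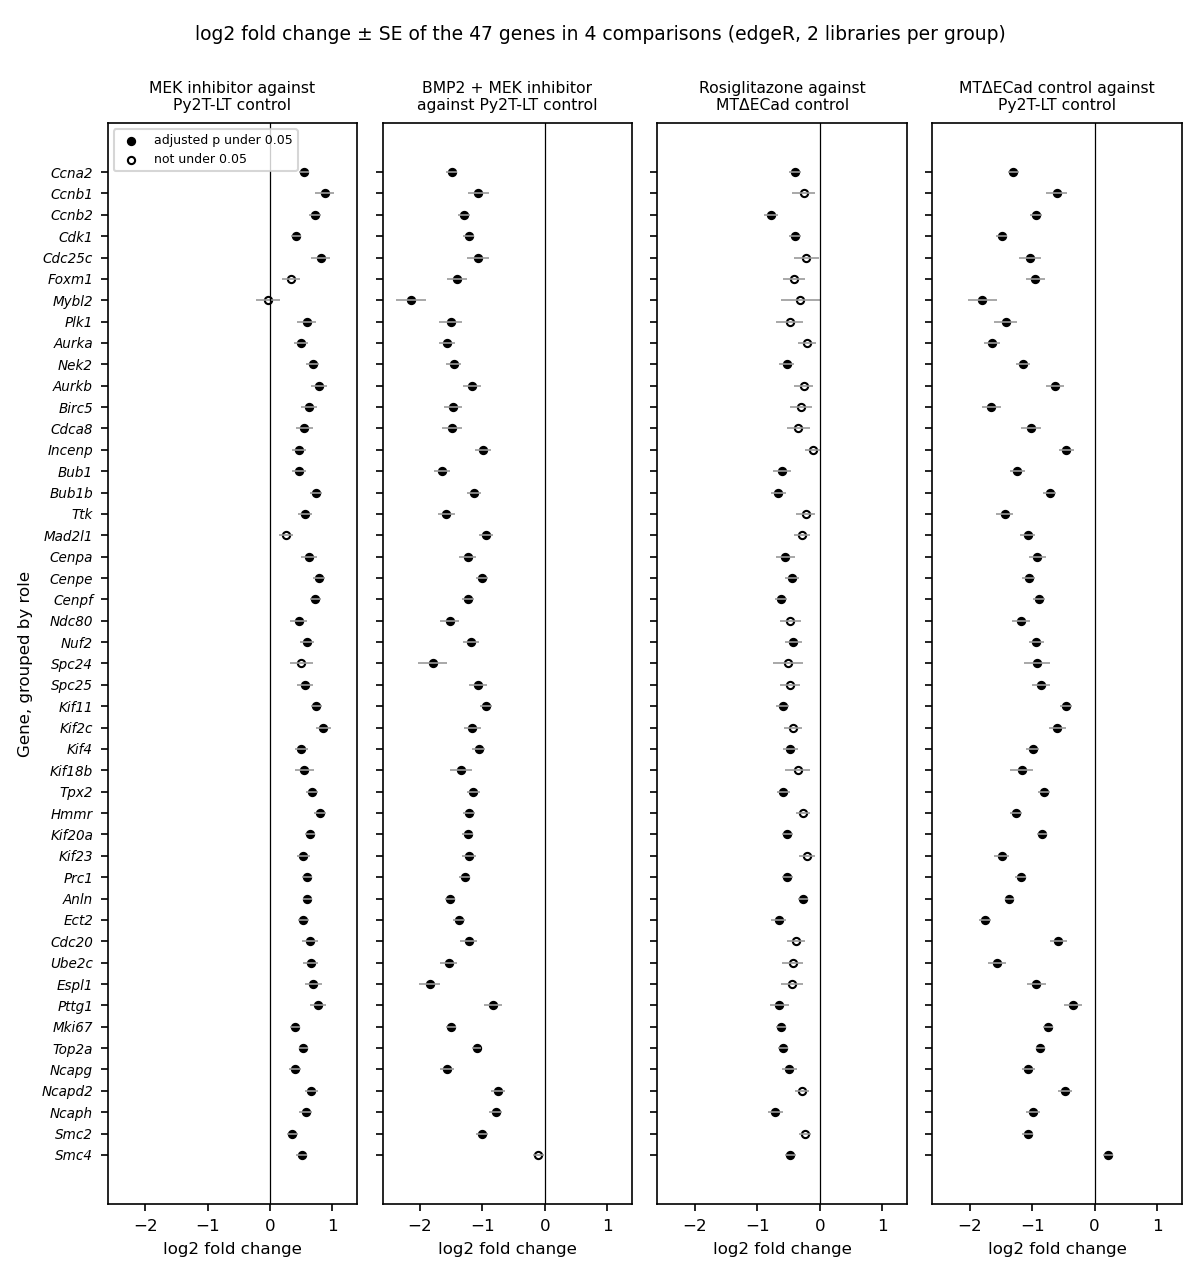
log2 fold change ± SE (x axes) of the 47 genes (rows, grouped by role) in 4 comparisons with 2 libraries per group, with filled points for an adjusted p under 0.05 (edgeR) and open points otherwise. Nearly all points lie right of 0 with the MEK inhibitor and left of 0 with BMP2 plus the inhibitor, with rosiglitazone and in MTΔECad controls, and 24 points are open for rosiglitazone.

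Whether the fall with BMP2 plus the MEK inhibitor was deeper than the fall with rosiglitazone was tested as the difference of the 2 effects in the same edgeR fit. It was deeper for 42 genes and shallower for 1, Smc4, where 13.3% and 11.6% of all tested genes were called in those directions and 24.8% in either. The median difference was -0.84, against -0.01 over all tested genes. No call was made for Kif11 (-0.35 ± 0.14, adjusted p = 0.067), Spc25 (-0.59 ± 0.22, 0.056), Pttg1 (-0.19 ± 0.21, 0.58) and Ncaph (-0.08 ± 0.17, 0.8). The call of Smc4 (0.37 ± 0.12, adjusted p = 0.029) was lost without Py2T-LT control replicate 2, BMP2 plus inhibitor replicate 1, MTΔECad control replicate 2 or rosiglitazone replicate 1, with adjusted p up to 0.17. Across the 47 genes, the 2 changes had a Pearson correlation of -0.05 and a Spearman correlation of 0.00, a description over genes that share their libraries and are not independent. The change was below 0 in both lines for all 47 genes and smaller with rosiglitazone for 46. Of the 13149 tested genes, 6507 were below 0 with BMP2 plus the inhibitor and 7181 with rosiglitazone. Those below 0 in both lines were not counted. Of the 47 genes, 22 fell in both comparisons. That is 22 of the 46 that fell with BMP2 plus the inhibitor and of the 23 that fell with rosiglitazone. As 46 of the 47 fell with BMP2 plus the inhibitor, the overlap could not have been smaller than 22. The share of all tested genes that fell in both was not computed.

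**Figure D4:**
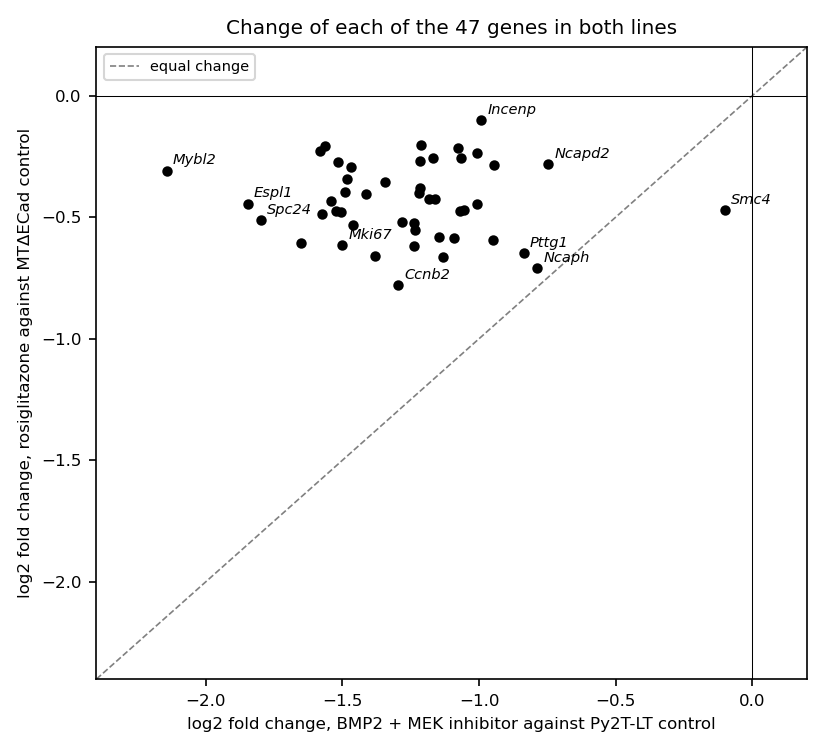
log2 fold change of each of the 47 genes with BMP2 plus MEK inhibitor against Py2T-LT control (x axis) and with rosiglitazone against MTΔECad control (y axis), 1 point per gene, with a dashed line where the changes are equal. All points are below 0 on both axes and 46 lie above the dashed line, Smc4 being the exception at the right edge.

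Among the genes of mitotic entry, Cdk1 (NCBI gene 12534, chr10:69335146-69352912 in GRCm38.p6) encodes the kinase itself. It stood at 94.0 and 91.8 CPM in the Py2T-LT controls, 126 and 123 with the MEK inhibitor, 40.7 and 39.1 with BMP2 plus the inhibitor, 30.8 and 35.2 in the MTΔECad controls and 25.3 and 24.7 with rosiglitazone. Each treated group was clear of its control, and the MTΔECad controls were already below the BMP2-treated Py2T-LT cells. Cdk1 rose by 0.42 ± 0.08 with the MEK inhibitor (adjusted p = 0.00074), fell by 1.22 ± 0.09 with BMP2 plus the inhibitor (2.5e-10) and by 1.64 ± 0.09 against the inhibitor alone (2.7e-12), and fell by 0.40 ± 0.09 with rosiglitazone (0.0051). It was lower by 1.49 ± 0.09 in MTΔECad than in Py2T-LT controls (4.4e-12). The rosiglitazone call was lost without MTΔECad control replicate 2 (-0.30, adjusted p = 0.13).

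Of its cyclin partners, Ccna2, the cyclin A2 gene, was measured at 102 and 96.4 CPM (Py2T-LT control), 143 and 147 (MEK inhibitor), 33.7 and 36.6 (BMP2 plus inhibitor), 38.3 and 41.9 (MTΔECad control) and 28.7 and 32.3 (rosiglitazone). Ccnb2 was measured at 41.1 and 37.99 CPM (Py2T-LT control), 65.1 and 65.2 (MEK inhibitor), 16.004 and 16.2 (BMP2 plus inhibitor), 20.5 and 20.7 (MTΔECad control) and 11.7 and 12.2 (rosiglitazone). Both genes were highest with the MEK inhibitor and lowest with rosiglitazone, and no treated group overlapped its control. Ccna2 fell by 1.49 ± 0.09 and Ccnb2 by 1.30 ± 0.10 with BMP2 plus the inhibitor (edgeR, adjusted p = 1.7e-11 and 1.2e-09). With rosiglitazone Ccnb2 fell by 0.78 ± 0.11 and Ccna2 by 0.39 ± 0.09, the latter with no call without MTΔECad control replicate 2 or rosiglitazone replicate 1 (adjusted p up to 0.1). Ccnb1 (NCBI gene 268697, chr13:100778739-100786486) stood at 11.1 and 13.1 CPM in the Py2T-LT controls, 21.3 and 23.2 with the MEK inhibitor, 6.70 and 4.94 with BMP2 plus the inhibitor, 7.03 and 8.83 in the MTΔECad controls and 6.10 and 7.22 with rosiglitazone. Its MTΔECad groups overlapped, and its change with rosiglitazone was -0.26 ± 0.18 (adjusted p = 0.45). With BMP2 plus the inhibitor it fell by 1.06 ± 0.17 against control (4e-05) and by 1.94 ± 0.16 against the inhibitor alone (5e-09). Between the lines Ccnb1 was lower in MTΔECad by 0.61 ± 0.17 (0.0038), a call lost without MTΔECad control replicate 1 (adjusted p = 0.064). Cdc25c, the gene of a phosphatase that activates CDK1, rose by 0.82 ± 0.15 with the MEK inhibitor and fell by 1.08 ± 0.17 with BMP2 plus the inhibitor, both against control, and fell by 1.89 ± 0.17 against the inhibitor alone, from 11.2 and 9.06 CPM in controls through 16.4 and 19.1 to 4.69 and 4.88. All 5 entry genes rose with the MEK inhibitor, all 5 fell with BMP2 plus the inhibitor, and 3 of 5 fell with rosiglitazone (1 without MTΔECad control replicate 2).

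**Figure D5:**
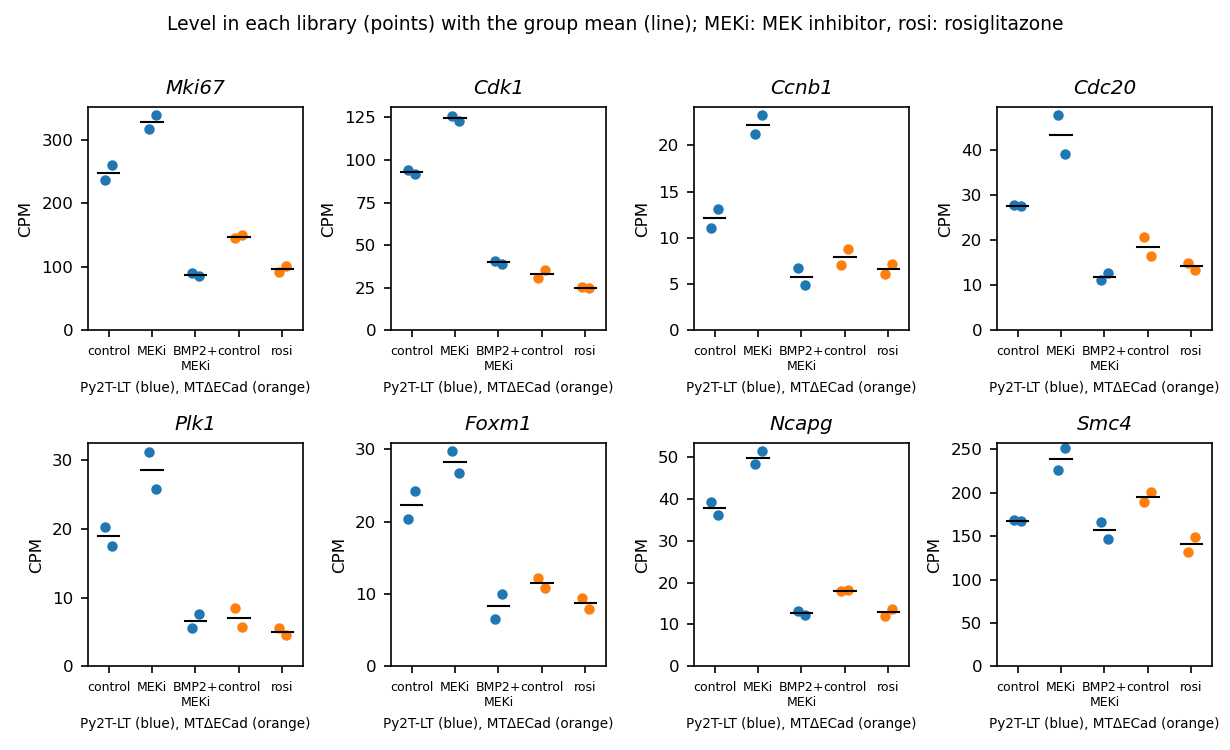
Level in CPM (y axes, from 0) of 8 genes in each library (points, 2 per group) with the group mean (line), for Py2T-LT control, MEK inhibitor and BMP2 plus MEK inhibitor (blue) and MTΔECad control and rosiglitazone (orange). The MEK inhibitor group is highest in each panel, and Smc4 differs from the other 7 in that BMP2 plus the inhibitor stands close to the Py2T-LT controls.

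The transcription factors of the programme had no call with the MEK inhibitor. Mybl2 (NCBI gene 17865, chr2:163054327-163084688) encodes B-MYB, which joins the MuvB complex in S phase. Its level was 5.79 and 5.25 CPM in the Py2T-LT controls, 5.36 and 5.48 with the MEK inhibitor, 1.14 and 1.34 with BMP2 plus the inhibitor, 1.53 and 1.63 in the MTΔECad controls and 1.31 and 1.24 with rosiglitazone. Control and inhibitor libraries overlapped, and the libraries with BMP2 lay far below both. The change with the MEK inhibitor was -0.03 ± 0.19 (edgeR, adjusted p = 0.96), and with BMP2 plus the inhibitor Mybl2 fell by 2.14 ± 0.24 (3.4e-07). Foxm1 (NCBI gene 14235, chr6:128362994-128375886) encodes the forkhead factor that joins MuvB in G2. It was at 20.4 and 24.2 CPM (Py2T-LT control), 29.7 and 26.7 (MEK inhibitor), 6.63 and 10.0 (BMP2 plus inhibitor), 12.2 and 10.9 (MTΔECad control) and 9.51 and 7.91 (rosiglitazone). The inhibitor libraries were above the controls, with a change of 0.34 ± 0.14 that did not pass (adjusted p = 0.13). Foxm1 fell by 1.41 ± 0.16 with BMP2 plus the inhibitor (5.2e-07) and by 1.75 ± 0.16 against the inhibitor alone (2.1e-08). Its change with rosiglitazone was -0.41 ± 0.18 (0.15), and between the lines it was lower in MTΔECad by 0.95 ± 0.16 (2.9e-05). Neither factor gene was called with the MEK inhibitor or with rosiglitazone. The differences between their changes and those of other members were not tested.

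Of the mitotic kinases, Plk1 (NCBI gene 18817, chr7:122159435-122169884), the polo-like kinase of centrosomes and kinetochores, was at 20.2 and 17.5 CPM in the Py2T-LT controls, 31.1 and 25.8 with the MEK inhibitor, 5.56 and 7.62 with BMP2 plus the inhibitor, 8.42 and 5.70 in the MTΔECad controls and 5.51 and 4.54 with rosiglitazone. Its rise with the MEK inhibitor was 0.59 ± 0.16 (edgeR, adjusted p = 0.012) and was lost without Py2T-LT control replicate 2 (0.49, adjusted p = 0.11) or MEK inhibitor replicate 1 (0.45, adjusted p = 0.14). Plk1 fell by 1.51 ± 0.18 with BMP2 plus the inhibitor (1.2e-06) and by 2.10 ± 0.18 against the inhibitor (8.8e-09). In MTΔECad cells both rosiglitazone libraries were lower than both controls, but the change of -0.48 ± 0.22 did not pass (adjusted p = 0.17). Between the lines Plk1 was lower in MTΔECad by 1.43 ± 0.18 (1.2e-06). Aurka, the Aurora kinase of the spindle poles, stood at 30.7 and 29.9 CPM (Py2T-LT control), 40.3 and 45.5 (MEK inhibitor), 10.2 and 10.2 (BMP2 plus inhibitor), 8.70 and 10.6 (MTΔECad control) and 7.74 and 9.01 (rosiglitazone). It had among the largest gaps between the lines, at 1.65 ± 0.13 (4.8e-10), and its MTΔECad groups overlapped. It fell by 1.56 ± 0.13 with BMP2 plus the inhibitor (2.3e-09). Its rise of 0.50 ± 0.11 with the MEK inhibitor was lost without MEK inhibitor replicate 2 (0.41, adjusted p = 0.065). Nek2, a kinase of centrosome separation, rose by 0.69 ± 0.10 with the inhibitor and fell by 1.46 ± 0.11 with BMP2 plus the inhibitor. With rosiglitazone it fell by 0.53 ± 0.13 (adjusted p = 0.0056), with no call without rosiglitazone replicate 1 (0.065).

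The chromosomal passenger complex corrects faulty attachments and later helps cytokinesis. Birc5 (NCBI gene 11799, chr11:117849237-117855743), the survivin gene, stood at 28.2 and 23.4 CPM in the Py2T-LT controls, 41.9 and 37.6 with the MEK inhibitor, 10.5 and 8.198 with BMP2 plus the inhibitor, 7.45 and 8.89 in the MTΔECad controls and 7.28 and 6.05 with rosiglitazone. Cdca8, the borealin gene, stood at 14.9 and 11.9 CPM (Py2T-LT control), 20.2 and 19.3 (MEK inhibitor), 4.96 and 4.65 (BMP2 plus inhibitor), 7.24 and 6.07 (MTΔECad control) and 5.51 and 4.95 (rosiglitazone). For each gene the Py2T-LT groups were separate, with the inhibitor alone highest and BMP2 plus the inhibitor lowest. Birc5 fell by 1.47 ± 0.15 and Cdca8 by 1.48 ± 0.16 with BMP2 plus the inhibitor (edgeR, adjusted p = 5.9e-08 and 2.5e-07). Birc5 was also lower by 1.65 ± 0.15 in the MTΔECad controls. The rise of Cdca8 with the inhibitor (0.55 ± 0.14) was lost without Py2T-LT control replicate 2 (0.40, adjusted p = 0.14) or MEK inhibitor replicate 1 (0.52, adjusted p = 0.058). Aurkb, the kinase of the complex, rose by 0.78 ± 0.13 with the inhibitor and fell by 1.17 ± 0.15 with BMP2 plus the inhibitor. Incenp had the smallest fall of the 4 with BMP2 plus the inhibitor against control, at 0.99 ± 0.13. None of the 4 passenger genes was called with rosiglitazone, where their changes ran from -0.34 to -0.10, and all 4 had a deeper fall with BMP2 plus the inhibitor by the test of the difference.

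In the spindle checkpoint, Bub1 (NCBI gene 12235, chr2:127800197-127831859), a checkpoint kinase of the kinetochore, was at 32.5 and 28.6 CPM in the Py2T-LT controls, 40.7 and 43.7 with the MEK inhibitor, 10.3 and 9.19 with BMP2 plus the inhibitor, 11.5 and 14.4 in the MTΔECad controls and 8.26 and 8.80 with rosiglitazone. Ttk, the kinase MPS1 at the head of the checkpoint, was at 20.7 and 20.1 CPM (Py2T-LT control), 29.9 and 30.3 (MEK inhibitor), 6.495 and 7.09 (BMP2 plus inhibitor), 6.96 and 8.01 (MTΔECad control) and 6.82 and 5.98 (rosiglitazone). Bub1 and Ttk were separate from their controls in each treated group. The 2 MTΔECad groups of Ttk lay next to each other, between 5.98 and 8.01 CPM. Bub1 fell by 1.65 ± 0.13 and Ttk by 1.58 ± 0.13 with BMP2 plus the inhibitor (edgeR, adjusted p = 1.7e-09 and 4.6e-09). The rise of Bub1 with the inhibitor (0.47 ± 0.12) was lost without Py2T-LT control replicate 2 or MEK inhibitor replicate 2, with adjusted p up to 0.097. Its fall with rosiglitazone (0.60 ± 0.14) was lost without MTΔECad control replicate 2 or rosiglitazone replicate 1, with adjusted p up to 0.15. Bub1b, the BUBR1 gene, had the larger fall with rosiglitazone, 0.66 ± 0.12 (adjusted p = 0.00029). Mad2l1 encodes MAD2, the protein that seizes CDC20. It stood at 28.3 and 27.8 CPM in the Py2T-LT controls, 32.5 and 34.6 with the MEK inhibitor, 14.9 and 14.2 with BMP2 plus the inhibitor, 13.4 and 13.2 in the MTΔECad controls and 11.9 and 9.90 with rosiglitazone. Its inhibitor libraries were above the controls by 0.26 ± 0.11 without a call (adjusted p = 0.12), and with BMP2 plus the inhibitor it fell by 0.94 ± 0.12 (1.1e-06).

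Kinetochore genes of the NDC80 complex, the microtubule hook, were all lower with BMP2 plus the inhibitor. Spc24 (NCBI gene 67629, chr9:21755434-21760446) was at 9.30 and 10.00 CPM in the Py2T-LT controls, 14.5 and 12.9 with the MEK inhibitor, 2.61 and 2.91 with BMP2 plus the inhibitor, 4.73 and 5.38 in the MTΔECad controls and 4.72 and 2.34 with rosiglitazone. Its fall of 1.80 ± 0.23 with BMP2 plus the inhibitor (edgeR, adjusted p = 1.6e-06) was the deepest of the 7 centromere and kinetochore genes. The MEK inhibitor libraries were higher by 0.50 ± 0.18 without a call (adjusted p = 0.068), and the gene passed without the count filter (0.013) and with the compared groups fitted alone (0.03). The rosiglitazone libraries of Spc24 stood far apart, the higher of them just under the lower control. Ndc80 itself was at 24.5 and 21.4 CPM (Py2T-LT control), 31.1 and 32.0 (MEK inhibitor), 7.70 and 8.26 (BMP2 plus inhibitor), 8.49 and 11.6 (MTΔECad control) and 8.07 and 6.46 (rosiglitazone). It fell by 1.52 ± 0.15 (4.6e-08), and its rise of 0.46 ± 0.13 with the inhibitor was lost without Py2T-LT control replicate 2, MEK inhibitor replicate 1 or MEK inhibitor replicate 2 and with DESeq2, with adjusted p up to 0.18. Spc25 was at 15.4 and 17.1 CPM in the Py2T-LT controls, 24.6 and 23.5 with the MEK inhibitor, 8.37 and 7.15 with BMP2 plus the inhibitor, 9.54 and 8.45 in the MTΔECad controls and 5.64 and 7.29 with rosiglitazone. It fell by 1.07 ± 0.15 with BMP2 plus the inhibitor (4.8e-06) and changed by -0.48 ± 0.16 with rosiglitazone without a call (0.062). Cenpa, the centromeric histone, Cenpe, a kinetochore motor, and Cenpf, a large kinetochore protein, rose by 0.62, 0.79 and 0.73 with the inhibitor and fell by 1.24, 1.01 and 1.24 with BMP2 plus the inhibitor. With rosiglitazone Cenpf fell by 0.62 ± 0.10 (0.00012), and 4 of the 7 genes fell. That count was 2 without MTΔECad control replicate 2 and 2 without rosiglitazone replicate 1. The call of Nuf2 was lost without any single library of the 4, with the compared groups fitted alone and with DESeq2 (adjusted p up to 0.28), that of Cenpa without MTΔECad control replicate 2 or rosiglitazone replicate 1 (up to 0.31) and that of Cenpe without MTΔECad control replicate 1 or rosiglitazone replicate 1 (up to 0.099).

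Among the motors and spindle proteins, Kif18b (NCBI gene 70218, chr11:102905518-102925134), a plus-end kinesin that shortens astral microtubules, was at 13.7 and 13.4 CPM in the Py2T-LT controls, 21.1 and 18.6 with the MEK inhibitor, 4.35 and 6.22 with BMP2 plus the inhibitor, 6.06 and 5.95 in the MTΔECad controls and 5.51 and 3.85 with rosiglitazone. Hmmr, the spindle-associated hyaluronan receptor gene, was at 52.2 and 49.99 CPM (Py2T-LT control), 86.1 and 92.2 (MEK inhibitor), 23.3 and 20.8 (BMP2 plus inhibitor), 19.8 and 22.7 (MTΔECad control) and 17.0 and 18.4 (rosiglitazone). Kif18b fell by 1.34 ± 0.18 and Hmmr by 1.22 ± 0.10 with BMP2 plus the inhibitor (edgeR, adjusted p = 2.9e-06 and 3.6e-09). Hmmr had a large rise with the inhibitor, 0.80 ± 0.09 (2.2e-06), and that of Kif18b, 0.55 ± 0.15, was lost without Py2T-LT control replicate 2 or MEK inhibitor replicate 1 and with DESeq2 (adjusted p up to 0.14). Kif11, the bipolar kinesin that pushes the poles apart, was at 59.0 and 54.6 CPM in the Py2T-LT controls, 89.0 and 101 with the MEK inhibitor, 29.7 and 29.1 with BMP2 plus the inhibitor, 39.5 and 42.9 in the MTΔECad controls and 26.2 and 28.3 with rosiglitazone. No group overlapped its control. It fell by 0.95 ± 0.10 with BMP2 plus the inhibitor and by 0.59 ± 0.10 with rosiglitazone (adjusted p = 0.00018). Tpx2, a spindle assembly factor, fell by 1.15 ± 0.10 and 0.58 ± 0.10 in the same comparisons, and the chromokinesin Kif4 by 1.06 ± 0.10 and 0.47 ± 0.11. The call of Kif4 with rosiglitazone was lost without MTΔECad control replicate 2 or rosiglitazone replicate 1 (adjusted p up to 0.11).

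The cytokinesis genes held some of the most abundant members. Anln (NCBI gene 68743, chr9:22331214-22389211), the anillin gene of the contractile ring, was at 266 and 249 CPM in the Py2T-LT controls, 381 and 398 with the MEK inhibitor, 92.5 and 87.6 with BMP2 plus the inhibitor, 96.0 and 104 in the MTΔECad controls and 80.7 and 84.7 with rosiglitazone. Ect2 was at 63.0 and 59.3 CPM (Py2T-LT control), 84.8 and 92.2 (MEK inhibitor), 24.4 and 22.6 (BMP2 plus inhibitor), 17.9 and 18.4 (MTΔECad control) and 11.0 and 12.03 (rosiglitazone). Anln fell by 1.52 ± 0.08 and Ect2 by 1.38 ± 0.10 with BMP2 plus the inhibitor (edgeR, adjusted p = 1.3e-12 and 2e-10). With rosiglitazone Ect2 fell by 0.66 ± 0.11 (0.00027) and Anln by 0.27 ± 0.08 (0.022). The Anln call was lost without MTΔECad control replicate 2 or either rosiglitazone replicate, with adjusted p up to 0.22. Kif20a, Kif23 and Prc1, genes of the central spindle, rose by 0.65, 0.53 and 0.59 with the inhibitor and fell by 1.24, 1.21 and 1.28 with BMP2 plus the inhibitor. Of the 5 genes 4 fell with rosiglitazone, the exception being Kif23 at -0.20 ± 0.13 (adjusted p = 0.39).

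In the ubiquitin and anaphase group, Cdc20 (NCBI gene 107995, chr4:118432901-118437343) was at 27.8 and 27.7 CPM in the Py2T-LT controls, 47.8 and 39.1 with the MEK inhibitor, 11.1 and 12.7 with BMP2 plus the inhibitor, 20.7 and 16.5 in the MTΔECad controls and 15.02 and 13.5 with rosiglitazone. It rose by 0.64 ± 0.12 with the inhibitor (edgeR, adjusted p = 0.00066), fell by 1.22 ± 0.14 with BMP2 plus the inhibitor (2.8e-07) and by 1.86 ± 0.13 against the inhibitor (3.6e-10). Its change with rosiglitazone, -0.38 ± 0.14, did not pass (0.081), although both libraries were below both controls, and Cdc20 was lower by 0.58 ± 0.13 in MTΔECad controls (0.00064). Ube2c was at 29.8 and 29.1 CPM (Py2T-LT control), 48.8 and 43.7 (MEK inhibitor), 10.7 and 9.54 (BMP2 plus inhibitor), 11.7 and 8.26 (MTΔECad control) and 7.74 and 6.95 (rosiglitazone). Its fall was 1.54 ± 0.14 against control (1.3e-08) and 2.19 ± 0.14 against the inhibitor (4.5e-11). Espl1 (NCBI gene 105988, chr15:102296254-102324357) was at 15.1 and 13.5 CPM in the Py2T-LT controls, 24.2 and 22.1 with the MEK inhibitor, 3.35 and 4.54 with BMP2 plus the inhibitor, 7.80 and 7.199 in the MTΔECad controls and 5.97 and 5.02 with rosiglitazone. It had the lowest BMP2 levels relative to the inhibitor among the 47, and its change with rosiglitazone was -0.44 ± 0.18 without a call (adjusted p = 0.11). Pttg1, the securin gene, whose product holds separase inactive, was at 12.2 and 12.1 CPM (Py2T-LT control), 20.7 and 20.7 (MEK inhibitor), 6.56 and 7.04 (BMP2 plus inhibitor), 10.3 and 8.89 (MTΔECad control) and 5.71 and 6.53 (rosiglitazone). It fell by 0.84 ± 0.15 with BMP2 plus the inhibitor (8.4e-05) and by 0.65 ± 0.15 with rosiglitazone (0.006). The latter call was lost without MTΔECad control replicate 1 or rosiglitazone replicate 1 (adjusted p up to 0.093). Pttg1 also differed least of the 46 lower genes between the lines, by 0.34 ± 0.14 (0.039). Without MTΔECad control replicate 2 that change was -0.24, adjusted p = 0.26, and the call was also lost without either Py2T-LT control, with DESeq2, without the count filter and with the compared groups fitted alone.

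Among the chromosome structure genes, Mki67 (NCBI gene 17345, chr7:135689784-135716450), which encodes the Ki-67 protein that coats mitotic chromosomes, was at 237 and 259.8 CPM in the Py2T-LT controls, 318 and 339 with the MEK inhibitor, 89.9 and 85.7 with BMP2 plus the inhibitor, 145 and 149.7 in the MTΔECad controls and 91.6 and 101 with rosiglitazone. No treated group overlapped its control. Its rise with the MEK inhibitor, 0.40 ± 0.08, was under the median of the 47 (edgeR, adjusted p = 0.00065). It fell by 1.5 ± 0.08 with BMP2 plus the inhibitor (3.1e-12), by 1.90 ± 0.08 against the inhibitor (1.5e-13) and by 0.62 ± 0.08 with rosiglitazone (8.4e-06). Its level in MTΔECad controls was lower by 0.75 ± 0.08 (4.2e-08). Top2a, the topoisomerase that untangles sister chromatids, rose by 0.53 ± 0.07 and fell by 1.09 ± 0.07 and 0.59 ± 0.07 in the treatments of the 2 lines.

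Condensin I, the ring that compacts mitotic chromosomes, is built from the ATPases SMC2 and SMC4 and the subunits NCAPG, NCAPD2 and NCAPH. Ncapg was at 39.1 and 36.2 CPM (Py2T-LT control), 48.1 and 51.3 (MEK inhibitor), 13.1 and 12.2 (BMP2 plus inhibitor), 17.9 and 18.2 (MTΔECad control) and 12.1 and 13.6 (rosiglitazone). Ncaph was at 28.8 and 30.2 CPM (Py2T-LT control), 41.6 and 46.2 (MEK inhibitor), 17.2 and 17.0 (BMP2 plus inhibitor), 14.7 and 15.1 (MTΔECad control) and 9.05 and 9.15 (rosiglitazone). Smc4 (NCBI gene 70099, chr3:69004738-69034623) was at 169 and 167 CPM in the Py2T-LT controls, 226 and 251 with the MEK inhibitor, 167 and 147 with BMP2 plus the inhibitor, 189 and 201 in the MTΔECad controls and 132 and 149.6 with rosiglitazone. With BMP2 plus the inhibitor the Smc4 libraries lay at and below the level of the controls, while Ncapg and Ncaph were far below theirs. The changes against control were -1.57 ± 0.11 for Ncapg, -1.01 ± 0.09 for Smc2, -0.79 ± 0.11 for Ncaph, -0.75 ± 0.11 for Ncapd2 and -0.10 ± 0.08 for Smc4, with edgeR adjusted p of 2.5e-10, 1.3e-08, 4.4e-06, 1.3e-05 and 0.37. Against the inhibitor alone Smc4 did fall, by 0.61 ± 0.08 (6e-06), and it rose by 0.51 ± 0.08 with the inhibitor (0.00018) and fell by 0.47 ± 0.09 with rosiglitazone (0.00046). The rises of Ncapg (0.40 ± 0.10) and Smc2 (0.36 ± 0.09) with the inhibitor were lost without MEK inhibitor replicate 2, and that of Ncapg also without Py2T-LT control replicate 2 (adjusted p up to 0.082 and 0.072).

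Smc4 took a different share of the mitotic RNA from group to group: 6.47% of the summed CPM of the 47 genes in Py2T-LT controls, 6.21% with the MEK inhibitor, 13.4% with BMP2 plus the inhibitor, 13.9% in MTΔECad controls and 13.9% with rosiglitazone. On a scale of CPM per kilobase of exon, Top2a was the most abundant of the 47 in Py2T-LT controls at a level of 64.6, ahead of Anln at 55.9 and Smc4 at 38.9. Smc4 led with BMP2 plus the inhibitor, at a level of 36.3 CPM per kilobase against 30.3 for Top2a, and also in both MTΔECad groups. Mybl2 was the least abundant in all 5 groups, from 1.51 CPM per kilobase in the Py2T-LT controls to 0.339 with BMP2 plus the inhibitor, and Espl1 was next.

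The changes of members with and without the promoter core were set side by side. With BMP2 plus the inhibitor the median change was -1.28 over 29 genes with a core, -1.06 over 9 without and -1.17 over 9 with no promoter in the table used. With the MEK inhibitor the medians were 0.56, 0.63 and 0.55, and with rosiglitazone -0.47, -0.43 and -0.41. The 9 without a core in the window were Birc5, Ccnb1, Cenpe, Mad2l1, Mybl2, Ncaph, Nek2, Nuf2 and Pttg1. No test was made of these differences.

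A list of 117 other mitosis genes, all tested, had medians of the same sign as the 47 and nearer to 0. It holds the anaphase-promoting complex, the inner kinetochore, cohesin, the regulators of CDK1 and the DREAM subunits. With the MEK inhibitor 49 rose and 1 fell, where 8.98% of all tested genes rose and 7.52% fell (median 0.32 over the list). The largest rises were in Gtse1, a G2 regulator, from 14.4 and 13.3 CPM to 31.0 and 28.2 (1.10 ± 0.13), and in the spindle gene Ckap2l, from 21.1 and 21.2 to 43.2 and 47.2 (1.10 ± 0.11). Exons of Ckap2l overlap an antisense gene. The gene that fell was Zwint, a kinetochore gene, from 177 and 183 to 145 and 148 CPM (-0.29 ± 0.07, edgeR adjusted p = 0.0061), a call lost without Py2T-LT control replicate 2 or MEK inhibitor replicate 1 (adjusted p up to 0.056). Without Py2T-LT control replicate 2, 30 of the 117 rose. With BMP2 plus the inhibitor 3 rose and 66 fell, where 19.1% of all tested genes rose and 19.4% fell (median -0.50 over the list), led down by Cit, the citron kinase gene of cytokinesis (6.96 and 10.6 to 2.34 and 2.15 CPM, -1.97 ± 0.23), and Ska1, a kinetochore gene (4.99 and 4.50 to 0.937 and 1.69 CPM, -1.83 ± 0.27). Against the inhibitor alone 5 rose and 77 fell, where 17.9% of all tested genes rose and 19.4% fell (median -0.84 over the list), with the deepest falls in Ska1 (-2.48 ± 0.26) and Depdc1a (-2.34 ± 0.39). The genes that rose there were Hjurp, Rbl2, E2f4, Zwint and Numa1, and 3 rose when any single library of the 4 was left out. Numa1, at 0.21 ± 0.08, had no call without any 1 of them (adjusted p up to 0.16). The call of E2f4 was lost without MEK inhibitor replicate 2 or either BMP2 library and with DESeq2 (up to 0.28), and that of Zwint without MEK inhibitor replicate 1 (0.054).

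With rosiglitazone 1 of the 117 rose and 16 fell (median -0.21), where 7.95% of all tested genes rose and 5.26% fell. Without MTΔECad control replicate 1, 7 of the 117 and 353 of all genes fell, and 9 of the 117 fell without each of the other 3 libraries. The falls were led by Knl1, the kinetochore scaffold, from 17.2 and 15.9 CPM to 9.64 and 9.35 (-0.80 ± 0.14), and Kif20b, a cytokinesis kinesin, from 17.9 and 19.5 to 10.4 and 12.2 (-0.73 ± 0.14). The gene that rose was Pkmyt1, an inhibitory kinase of CDK1, from 2.58 and 2.38 to 4.92 and 4.26 CPM (0.89 ± 0.23, edgeR adjusted p = 0.011), which overlaps Paqr4 on the opposite strand and lost its call without MTΔECad control replicate 2 or rosiglitazone replicate 1 and with DESeq2. In MTΔECad controls 76 were lower than in Py2T-LT controls and 7 higher (median -0.61), against 31.7% and 29.3% of all tested genes. Esco2, a cohesin acetyltransferase gene, was lower by 2.20 ± 0.17 and the kinase gene Pbk by 2.08 ± 0.16. Wapl, which encodes the cohesin release factor, was higher by 1.27 ± 0.08, from 227 and 240.0 to 545 and 585 CPM, followed by Cdc26 (0.55 ± 0.15), Rbbp4 (0.52 ± 0.07), Cdc16 (0.44 ± 0.08), Anapc7 (0.44 ± 0.09), Dlgap5 (0.28 ± 0.11) and Anapc4 (0.20 ± 0.08). Cdc26, Cdc16, Anapc7 and Anapc4 encode subunits of the anaphase-promoting complex. The call of Dlgap5 was lost without Py2T-LT control replicate 2 or MTΔECad control replicate 1 and with DESeq2, and that of Anapc4 without Py2T-LT control replicate 1 or MTΔECad control replicate 2.

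DNA replication genes, an S-phase list of 43, give a comparison with an earlier phase of the cycle. With the MEK inhibitor 8 rose and 0 fell, where 8.98% of all tested genes rose and 7.52% fell (median 0.16 over the list). Without Py2T-LT control replicate 2, 2 of the 43 and 799 of all genes rose. Without MEK inhibitor replicate 1 4 of the 43 rose, without MEK inhibitor replicate 2 3 and with DESeq2 5. With BMP2 plus the inhibitor 0 rose and 38 fell, where 19.1% of all tested genes rose and 19.4% fell (list median -0.82). Against the inhibitor alone 0 rose and 38 fell, where 17.9% of all tested genes rose and 19.4% fell (-1.07). With rosiglitazone 0 rose and 9 fell, where 7.95% of all tested genes rose and 5.26% fell (-0.24). In MTΔECad controls 35 were lower and 1 higher (-0.81), against 31.7% and 29.3% of all tested genes. The rosiglitazone count was 4 without rosiglitazone replicate 2. Whether the mitosis and the replication genes differed in their response was not tested.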

How the data were processed

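RNA was extracted from 2 independent experiments and libraries were made with a stranded total RNA kit, per the labels' protocols, which also speak of poly-A RNA. The values are raw read counts per gene as deposited, which the authors made from alignments by STAR to mm10, per the submitters' processing notes. Which tool counted, whether by strand and on which annotation is not given in the sources used here. Identifiers were matched to symbols in RefSeq's GRCm38.p6 annotation for 18057 of 18103 genes, and exon lengths and overlaps came from GENCODE's annotation of the same assembly.

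Counts were fitted in R 4.3.3 with edgeR 4.0.16: filterByExpr (13149 genes left), TMM scaling, and a robust quasi-likelihood model with 1 mean for each of 5 groups over all 10 libraries (5 residual degrees of freedom, common biological coefficient of variation 7.07%). Contrasts were tested with glmQLFTest, adjusted by Benjamini-Hochberg over all tested genes, with a threshold of 0.05. Rose and fell are used only of genes that passed. SE is the size of the log2 fold change divided by the square root of F. The procedure was tested on simulated data. CPM values use the TMM-scaled library sizes.

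The members and lists were chosen with earlier results of these data known. Library values are given for the 2 members of each role with the largest change with BMP2 plus the inhibitor against control, for members called against the majority, for members not called where over 80% were, and for Mki67, Cdk1, Ccnb1, Cdc20, Plk1 and Foxm1. Of the other mitosis genes, the 2 largest called changes in each direction and those called against the majority are named. Other members named were chosen after their values were seen. Alternatives were DESeq2 1.42.0, RLE size factors, no count filter, the compared groups fitted alone, the replicate number as a block and leaving out each library in turn.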

Additional observations from a re-analysis of the deposited data

How the results depend on the processing

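Of 4756 recomputed values over the members, the lists and the named genes, 4528 were classed as the same. That class took in genes that kept their side of the threshold and counts that moved by at most 1.5 times. Member medians that moved by less than the standard deviation over members were in it too. An uncalled gene whose change switched sign also counted as the same, as did the median over all tested genes. Of the other values, 166 lost a call, 20 gained one, 42 moved further and none changed sign while called. With BMP2 plus the MEK inhibitor, 46 genes fell against control and 47 against the inhibitor in every alternative run. With the MEK inhibitor 34 of the 43 calls held in every alternative (36 to 43 with a library left out, 41 to 44 otherwise), with rosiglitazone 12 of 23 (14 to 22 and 22 to 26), between the lines 44 of 47, and in the difference of the effects 31 of 43. The count of all genes called with the MEK inhibitor, 2170, ran from 1445 to 2177 with a library left out, lowest without Py2T-LT control replicate 2, and that with rosiglitazone, 1737, from 1113 to 1350, lowest without MTΔECad control replicate 1. Members that fell with rosiglitazone numbered 14 without rosiglitazone replicate 1. The 1 member higher in MTΔECad controls, Smc4, gave a count of 0 with DESeq2 and of 0 to 1 with a library left out, and the 1 member with a shallower fall in the difference, again Smc4, also a count of 0 to 1. Those fits hold fewer libraries, apart from DESeq2, where the cause was not tested.

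Samples with the same replicate number did not deviate together (correlations of -0.06 to 0.10 over the 5 comparisons), so the numbers were not taken as pairs. With the replicate block, 43 genes rose with the MEK inhibitor, 46 fell with BMP2 plus the inhibitor, 47 fell against the inhibitor, 24 fell with rosiglitazone, 46 were lower and 1 higher in MTΔECad controls, and 42 fell further and 1 less in the difference. Mybl2 had the lowest mean CPM of the members, and how depth limits each call was not tested. Of the 24 members without a call with rosiglitazone, 6 gained one in some alternative.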

Other observations

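Hjurp, the chaperone that loads the centromeric histone CENP-A, rose with BMP2 plus the MEK inhibitor, where 46 of the 47 mitosis genes fell. It stood at 49.7 and 45.6 CPM in the Py2T-LT controls, 65.0 and 59.98 with the MEK inhibitor, 138 and 143 with BMP2 plus the inhibitor, 11.7 and 11.3 in the MTΔECad controls and 9.57 and 9.28 with rosiglitazone. The BMP2 libraries were above all others and the MTΔECad libraries below all others, with little spread within a group. Hjurp rose by 1.56 ± 0.09 on the log2 scale with BMP2 plus the inhibitor against control (edgeR, adjusted p = 4.4e-12) and by 1.17 ± 0.08 against the inhibitor alone (3.5e-10), and its response differed from that to rosiglitazone by 1.85 ± 0.15 (4.5e-09). Cenpa, whose protein it carries, stood at 29.0 and 25.8 CPM in the Py2T-LT controls, 42.5 and 42.0 with the MEK inhibitor and 13.1 and 10.3 with BMP2 plus the inhibitor. No exon of Hjurp overlaps another gene in the annotation used.

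Of the subunits of the repressive DREAM complex, Rbl2, the p130 gene, was at 96.6 and 96.2 CPM (Py2T-LT control), 86.8 and 87.4 (MEK inhibitor), 118 and 118 (BMP2 plus inhibitor), 83.2 and 81.4 (MTΔECad control) and 75.3 and 78.8 (rosiglitazone). It rose by 0.29 ± 0.07 with BMP2 plus the inhibitor (edgeR, adjusted p = 0.0031) and by 0.44 ± 0.07 against the inhibitor (6e-05). Its exons overlap Aktip. With Hjurp and E2f4, Rbl2 made up the 3 of the 117 other mitosis genes that rose with BMP2 plus the inhibitor against control. No other DREAM subunit on that list rose, and the part of the complex in the falls was not tested. E2f4, which encodes the E2F partner of p130, was at 22.8 and 21.7 CPM in the Py2T-LT controls, 23.9 and 19.9 with the MEK inhibitor, 28.5 and 26.9 with BMP2 plus the inhibitor, 23.9 and 20.9 in the MTΔECad controls and 22.4 and 20.1 with rosiglitazone, and its rise of 0.31 ± 0.12 (0.039) was lost when any of the 4 libraries was left out and with DESeq2, with adjusted p up to 0.18. In the difference of the effects, the cohesin gene Smc3 and Rbl2 were the other genes of the 117 called in the direction of Hjurp, by 0.34 ± 0.12 (0.041) and 0.39 ± 0.10 (0.009), and the deepest in the opposite direction were Ska1 (-1.62 ± 0.40) and Ccnf, the cyclin F gene (-1.42 ± 0.20). The call of Smc3 was lost with DESeq2, with the compared groups fitted alone and with any of 5 libraries left out, with adjusted p up to 0.21.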
